A study of Mus musculus with 4 samples.

Results

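Cluster 115:Sema3a/Cdh9 was a set of 82 neuronal nuclei of the mouse posterior hindbrain, named by the authors of the data after a pair of its marker genes, Sema3a and Cdh9. Its members were the nuclei that passed the authors' quality filter and carried this cluster number in their table of nuclei. They made up 0.654% of the 12539 neurons and came from 39461 nuclei kept in all. Among the 134 neuronal clusters it ranked 70 by size, against a median of 86.5 nuclei per cluster. All other neurons, 12457 nuclei, served as the comparator.

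The nuclei came from 4 libraries of single-nucleus RNA sequencing, 2 per group. Every mouse had received clozapine N-oxide (CNO), the ligand of the chemogenetic receptors, at 3 mg per kg intraperitoneally 1 h before the dissection of a hindbrain piece with the area postrema (AP) and the nucleus of the solitary tract (NTS), without food. The study's methods give mice aged 12 to 20 weeks, of both sexes, on a C57BL/6 background. The control group is labelled WT, while the methods give AgRP-IRES-Cre-/- and POMC-Dre-/- together with hM3DGqfl/- and hM4DGifl/-, that is both silent receptor alleles and neither recombinase. The other group, AgRP-Gq;POMC-Gi and below Gq/Gi for short, carried 1 copy of each recombinase beside the same receptor alleles: AgRP-IRES-Cre+/- and POMC-Dre+/- with hM3DGqfl/- and hM4DGifl/-. In these mice Cre from the Agrp locus turns on the activating receptor hM3DGq in AgRP neurons, and the POMC-Dre transgene turns on the inhibitory receptor hM4DGi in POMC neurons. Both receptor alleles sit in Rosa26 behind the CAG promoter and a stop sequence, so any cell that once expressed a recombinase keeps the receptor. According to the methods, samples of a condition were pooled, with 2 mice per group, so that p-values measured the spread between 2 libraries a group and whether these are separate animals cannot be told from the labels.

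The cluster drew 16 and 24 nuclei from control and 21 and 21 from Gq/Gi (replicate 1, then replicate 2, in this order throughout). Its UMIs (unique molecular identifiers, that is counted transcripts) numbered 101758, 185636, 165952 and 138475. A median nucleus held 7192.5 UMIs (range 845 to 19396) and 3274 genes, against 8716 UMIs and 3567 genes in other neurons. No barcode was shared between libraries within the cluster, and 1 of its barcodes was also a kept nucleus of another library. Gq/Gi replicate 2 stood apart in sex-linked RNA, also in this cluster: Xist, the RNA that coats the inactive X chromosome, was at 364, 630, 663 and 7.22 CPM (counts per 1000000 UMIs). The choroid plexus transcript Ttr was at 0, 1503, 24.1 and 888 CPM, with the summed choroid plexus and ependymal list between 18.3 and 1021 CPM in the other neurons of the same libraries. Both are given again where they touch a group difference.

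As background, neurons of the brainstem and spinal cord arise from domains of the neural tube, each marked by a code of homeodomain transcription factors. Lhx3 and Lhx4 are LIM homeodomain factors of ventral interneurons and motor neurons. Shox2 is a homeodomain factor found in excitatory interneurons of rhythm-generating circuits. These factors are described below as genes, since the cluster carries no such name in the table.

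All 10 pan-neuronal genes had UMIs, and 1 of them, Rbfox1, lay 2-fold below other neurons. Their summed level was 35113, 33803, 33251 and 31269 CPM against 34081 to 35523 CPM in other neurons. The label Neurons fits these values. The glutamate transporter Slc17a6, which loads vesicles with glutamate, was at 197, 194, 271 and 173 CPM, against 75.3 ± 3.18 (SD, n = 4 libraries) in other neurons. It had a UMI in 57 of the 82 nuclei (69.5%, exact 95% interval 58.4 to 79.2) and ranked 4 among the neuronal clusters. Oligodendrocytes, which do not use this transporter, showed a UMI in 3.49% of nuclei at a median depth of 2460 UMIs. With each nucleus thinned to 2000 UMIs, which left 78 of the 82 nuclei, the shares were 32.1% in the cluster, 12.5% in other neurons and 2.71% in oligodendrocytes.

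The other vesicular glutamate transporters were rare. Slc17a7 had 0 UMIs in 82 nuclei, which allows a share of nuclei with a UMI of up to 3.66%, and Slc17a8 had a UMI in 2 nuclei. Genes of inhibitory release were low. Slc32a1, the vesicular transporter of GABA and glycine, was at 0, 0, 0 and 21.7 CPM (2 nuclei), and Slc6a5, the glycine transporter of glycinergic terminals, was at 9.83 CPM in control replicate 1 and 0 elsewhere (1 nucleus). The GABA-synthesizing enzymes Gad1 and Gad2 were found in 4 and 6 nuclei, and Gad2 was at 20.1 ± 19.7 CPM against 95.7 in other neurons. The shares for Slc32a1 and Slc6a5 (2.44% and 1.22%) lay below those in oligodendrocytes (2.82% and 1.39%) and read as background. In all, 10 nuclei held a UMI of Slc32a1, Gad1, Gad2 or Slc6a5, and 7 of these also held Slc17a6. The GABA transporter Slc6a11 and the glycine transporter Slc6a9, which glia also use, had a UMI in 11.0% and 13.4% of nuclei (2.92% and 18.7% of oligodendrocytes), at 1.31 and 1.47 times other neurons.

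Of 14 genes of acetylcholine and monoamine release, 9 had no UMI in the cluster (Chat, Dbh, Th, Slc6a2, Pnmt, Slc6a3, Slc6a4, Fev and Hdc). Slc18a2, the vesicular monoamine transporter, was found in 7 nuclei at 0.561 times other neurons, Slc5a7 in 3, Tph2 in 2, and Slc18a3 and Ddc in 1 each.

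Homeodomain transcription factors were among the genes well above other neurons. Shox2 was at 88.4, 43.1, 72.3 and 79.4 CPM by library, against 4.75 ± 1.16 in other neurons. Lhx3 was at 9.83, 21.5, 42.2 and 43.3 CPM against 0.783, and Lhx4 at 19.7, 5.39, 54.2 and 50.6 CPM against 1.51. For these 3 factors each of the 4 libraries lay above the mean of other neurons, and for Lhx3 and Lhx4 both control libraries lay below both Gq/Gi libraries, though neither gene was called between the groups. Over all genes tested 14.8% did not overlap upward and 18.1% downward, and of the 30 lineage factors tested 5 did so upward and 10 downward. By pooled CPM the cluster ranked 2 among the 134 neuronal clusters for Lhx3 and 3 for Shox2 and Lhx4. Since the clusters were built from expression, these levels describe the cluster and were not tested.

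Detection per nucleus was sparse, as is usual for transcription factors in nuclei. Shox2 had a UMI in 28 nuclei (34.1%, exact 95% interval 24.0 to 45.4), Lhx3 in 15 (18.3%) and Lhx4 in 12 (14.6%). In oligodendrocytes the shares were 0.428%, 0.00595% and 0.131%. After thinning, Shox2 was found in 17.9% of nuclei in the cluster and 1.09% of other neurons, and Lhx4 in 7.69% and 0.293%.

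Of the 113 lineage transcription factors listed, 30 were found in 5% or more of nuclei. Of these, 6 lay at least 2-fold above other neurons (among them Lhx3, Lhx4, Pbx3, Prdm8 and St18) and 7 at least 2-fold below (Ebf1, Satb1, Tcf4, Tshz1, Tshz3, Bcl11a and Nfib), with a median ratio of 0.968. Over all 10707 genes found in at least 5% of nuclei, 450 lay 2-fold above and 217 2-fold below, with a median ratio of 1.08. Pbx3, a Hox cofactor, was at 825, 652, 645 and 859 CPM against 314. Tshz3, a zinc finger factor of respiratory circuits among others, was at 29.5, 32.3, 12.1 and 28.9 CPM against 209 in other neurons and ranked 133 of 134. Ebf2, Lmx1b and Uncx had no UMI in the cluster and were at 70.0, 16.1 and 14.0 CPM in other neurons.

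Hox genes, which set position along the head-to-tail axis, were found mainly from groups 3 and 4. Of the 28 genes, 5 passed the 5% limit: Hoxc4 in 25 nuclei, Hoxd3 and Hoxb3 in 17 each, and Hoxa3 and Hoxb4 in 5 each. Hoxc4 was at 88.4, 26.9, 54.2 and 57.8 CPM against 41.6 in other neurons. Hoxa3 was lower, at 0.35 times other neurons. Hoxc6, Hoxc8, Hoxc9 and Hoxc10 had no UMI.

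The 20 leading genes were those with the highest level relative to other neurons among the genes found in at least 25% of the nuclei and above other neurons in all 4 libraries, a rule that 786 genes met. A pair of uncharacterized long noncoding RNAs came first. Gm40331 was at 98.3, 91.6, 66.3 and 57.8 CPM against 0.262 ± 0.238 in other neurons, and Gm42953 at 59.0, 59.3, 84.4 and 57.8 CPM against 0.300 ± 0.0548. The next highest cluster, 146, had 25.2 and 19.6 CPM. Cluster 115 held 57.4% of all neurons with a Gm40331 UMI and 43.6% of those with a Gm42953 UMI, and the share of its nuclei with a UMI was 32.9% and 29.3%, against 0.00595% and 0.238% of oligodendrocytes.

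These RNAs are genomic neighbours. In GENCODE M21 on GRCm38, Gm42953 is a lincRNA on the minus strand at chr5:126797255-126815482 and Gm40331 a lincRNA on the plus strand at chr5:126852757-126885316, 37274 bases apart and facing away from each other. RefSeq places the start of Gm40331 further upstream, in a window beginning at 126787488 on the far side of Gm42953. Whether a transcript from there spans Gm42953 on the opposite strand was not tested. Within the cluster 18 nuclei held both RNAs, 9 only Gm40331 and 6 only Gm42953. In other neurons 3 nuclei of 12457 held both.

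**Figure D1:**
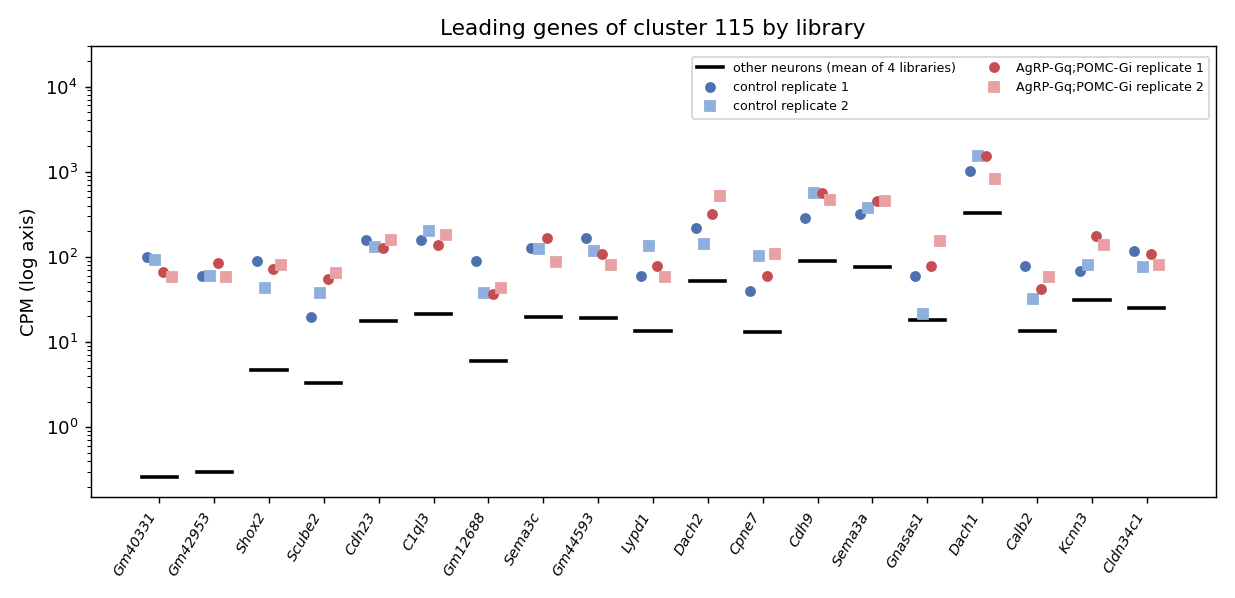
Level of 19 of the 20 leading genes in cluster 115, as CPM on a log axis, with 1 point per library (control in blue, Gq/Gi in red) and a black bar for the mean of other neurons over the 4 libraries. Each point lies above its bar, from 63.0-fold for Gm40331 to 3.66-fold for Cldn34c1 in the ratio of means with 1 CPM added to both.

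Of the other leading genes, 4 belonged to the list of adhesion and guidance genes: Cdh9, Cdh23, Sema3a and Sema3c. Cdh9, a classical cadherin of synaptic contacts, was at 285, 566, 560 and 469 CPM against 89.1 ± 7.03 and was the highest of all neuronal clusters. Sema3a and Sema3c, secreted semaphorins that repel growing axons, were at 400 ± 67.2 and 127 ± 33.6 CPM (SD, n = 4) against 76.6 and 19.4. Cdh23, a cadherin best known from the tip links of hair cells, was at 143 ± 17.5 CPM against 17.7, and the cluster ranked 2 behind cluster 113. C1ql3, a secreted complement-like protein that links synaptic receptors, was at 169 ± 26.6 CPM against 21.5. Scube2, a secreted protein that helps release Hedgehog ligands, was at 19.7, 37.7, 54.2 and 65.0 CPM against 3.31 and had its highest level here.

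Dach1 and Dach2, paralogous transcriptional cofactors, were at 1224 ± 357 and 297 ± 161 CPM against 323 and 51.4. Dach2 was also at 97.8 CPM in oligodendrocytes, with a UMI in 15.1% of them. Calb2, the calcium buffer calretinin, was at 52.7 ± 20.2 CPM against 13.4. Kcnn3, the small-conductance calcium-activated potassium channel SK3, was at 115 ± 49.6 CPM against 30.7, and Lypd1, a membrane-anchored modulator of nicotinic receptors, at 82.4 ± 36.1 CPM against 13.5. Cpne7, Gm12688, Gm44593, Gnasas1 and Cldn34c1 completed the list with ratios between 3.66 and 7.44. Gnasas1 is antisense to the Gnas locus and is called Nespas in GENCODE. Cldn34c1 belongs to a family of similar X-linked copies and had a UMI in 13.7% of oligodendrocytes, so its level is uncertain. The genes just inside and just outside the limit of 20 were Cldn34c1 at 3.66-fold and Atp10a at 3.61-fold.

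Promoter windows were looked up for the genes that carry the description above: Shox2 and Gm40331 as leading genes and Slc17a6 as the transmitter gene. Each window ran from 250 bases before to 50 bases after a RefSeq start on GRCm38.p6, and 13 of the 20 leading genes had 1 or more windows. They were searched for TAATTA, a core sequence bound by homeodomain factors of the Shox and Lhx families, which reads the same on both strands. It stood in 1738 of 32851 windows of this length (5.29%), in 0 of the 16 windows of leading genes, and in the second Slc17a6 window, where it is in capitals.
Shox2, chr3:66981722-66982021, minus strand: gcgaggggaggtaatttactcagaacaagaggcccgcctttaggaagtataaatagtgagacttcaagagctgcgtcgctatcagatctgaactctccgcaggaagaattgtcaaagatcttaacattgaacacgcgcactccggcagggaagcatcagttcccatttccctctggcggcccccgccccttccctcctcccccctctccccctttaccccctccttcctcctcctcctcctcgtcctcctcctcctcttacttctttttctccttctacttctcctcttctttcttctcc
Gm40331, chr5:126787488-126787787, plus strand: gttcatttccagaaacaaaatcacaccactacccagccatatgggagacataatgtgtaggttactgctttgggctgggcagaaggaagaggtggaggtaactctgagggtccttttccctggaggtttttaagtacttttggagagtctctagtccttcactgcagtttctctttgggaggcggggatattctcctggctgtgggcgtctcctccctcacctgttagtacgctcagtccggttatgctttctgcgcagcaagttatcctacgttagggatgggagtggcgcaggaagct
Slc17a6, first start, chr7:51621580-51621879, plus strand: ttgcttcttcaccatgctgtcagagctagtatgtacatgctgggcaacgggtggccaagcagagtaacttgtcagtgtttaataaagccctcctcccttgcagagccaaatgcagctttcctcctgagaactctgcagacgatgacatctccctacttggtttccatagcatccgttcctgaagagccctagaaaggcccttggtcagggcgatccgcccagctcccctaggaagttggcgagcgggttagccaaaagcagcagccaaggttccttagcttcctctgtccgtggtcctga
Slc17a6, second start, chr7:51624387-51624686, plus strand: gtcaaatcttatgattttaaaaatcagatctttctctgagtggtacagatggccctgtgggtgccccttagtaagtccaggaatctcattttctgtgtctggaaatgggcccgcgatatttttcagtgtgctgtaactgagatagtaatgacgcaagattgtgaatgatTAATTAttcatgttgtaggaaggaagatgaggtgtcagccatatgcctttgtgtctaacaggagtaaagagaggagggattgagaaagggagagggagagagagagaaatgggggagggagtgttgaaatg
A match describes these letters only, and the data hold no measurement of binding.

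Among adhesion and guidance genes, 65 of the 71 listed were found in at least 5% of nuclei, with 9 at least 2-fold above and 9 at least 2-fold below other neurons and a median ratio of 1.08. Robo1, a receptor of Slit ligands, was at 2712, 4083, 3851 and 2224 CPM against 1433 and ranked 3, and the protocadherin Pcdh9 at 10093, 10036, 9201 and 10652 CPM against 4585. The netrin receptors Unc5c and Unc5d were at 0.27 and 0.223 times other neurons, and Il1rapl2 at 0.0999 times.

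Of the 14 receptors for metabolic hormones and feeding peptides found in at least 5% of nuclei, only the orexin receptor Hcrtr2 lay 2-fold above other neurons (128, 183, 78.3 and 57.8 CPM against 51.1), with the prolactin receptor Prlr among those 2-fold below. Nr3c2, Insr and Igf1r were the members found in the most nuclei, at 1.15, 1.19 and 1.14 times other neurons. Of 11 amine receptors, Htr7 (145 CPM against 64.1) and Adra1b were 2-fold above and Htr1f and Adra1a 2-fold below. The glycine receptor subunit Glra3 was at 275, 345, 482 and 137 CPM against 110. Of 32 potassium channel genes, 4 lay 2-fold above other neurons (Kcnn3, Kcnmb4, Kcnk9 and Kcnc4, at 3.67, 3.00, 2.14 and 2.12 times) and 2 lay 2-fold below (Kcna1 and Kcnab1, at 0.226 and 0.212 times). Of 27 sodium, calcium, HCN and TRP channel genes the calcium channel subunit Cacna2d3 was at 0.0749 times.

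Neuropeptides were sparse. Of 45 genes 7 passed the 5% limit, and those found in the most nuclei, Pcsk1n and Scg2, are general secretory proteins. Nmu, neuromedin U, was 2.84 times other neurons in 5 nuclei. Agrp had a UMI in 54.9% of the nuclei at 121 ± 55.6 CPM, while other neurons had 87.9 ± 4.05 CPM and a UMI in 50.8% of nuclei, so that its level did not set the cluster apart. In GENCODE M21 the Agrp gene covers chr8:105566698-105637393. Which part of it the UMIs came from was not tested, so they need not be mRNA of the peptide. Bdnf, a growth factor whose transcription follows activity, was at 59.0, 32.3, 90.4 and 36.1 CPM against 13.4 in other neurons.

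The neuronal clusters most like it, by Pearson correlation of centred log2 levels over the 2000 most variable genes, were 184:Calcr/Shox2 (24 nuclei, r = 0.287), 30:Zfp804b/Npas1 (219 nuclei, r = 0.271) and 143:Kcnq5/Hs3st4 (60 nuclei, r = 0.237). These correlations are across genes, which are not independent, and the clusters share the same 4 libraries. The order was not firm, since cluster 30 came first with fewer variable genes, without control replicate 1 and without Gq/Gi replicate 2. Clusters 184 and 30 also held Shox2, Lhx3 and Lhx4. In that order they were at 98.4, 49.2 and 49.2 CPM in cluster 184 and at 16.3, 8.81 and 14.7 CPM in cluster 30, while cluster 143 held Shox2 (43.6 CPM) without an Lhx3 UMI.

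Cluster 185:Hmcn2/Abcb5 (15 nuclei) had the highest Slc17a6 of the neuronal clusters, 339 CPM, and the highest Lhx4, 54.5 CPM, with no Shox2 UMI. It held the transcription factor Sox14 in 8 of 15 nuclei, where cluster 115 had a Sox14 UMI in 0 of 82. Gm40331 and Gm42953 had no UMI in clusters 184, 30, 143 and 185.

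**Figure D2:**
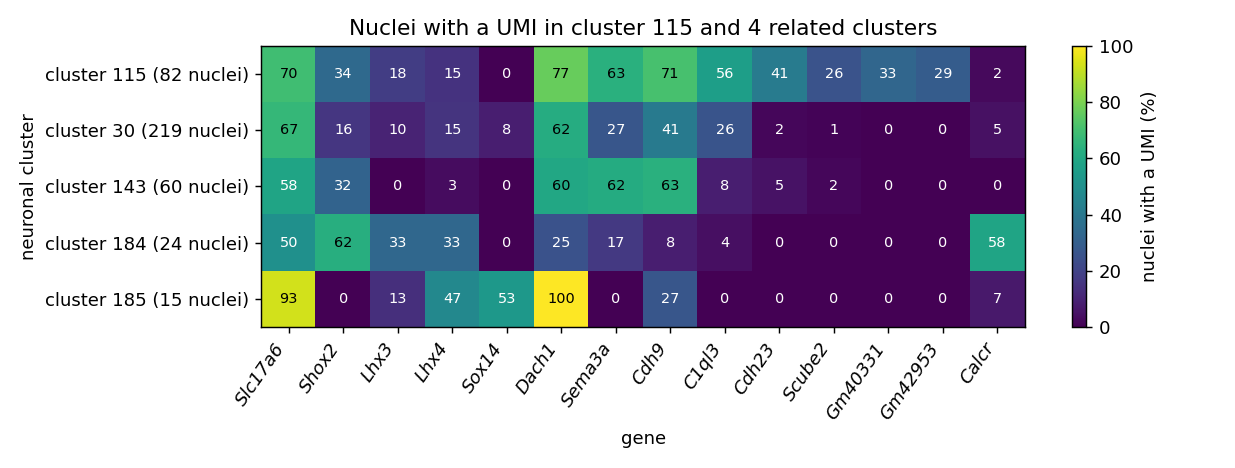
Share of nuclei with a UMI, in percent, for 14 genes (columns) in cluster 115, its 3 most similar clusters and cluster 185 (rows). Slc17a6 was found in 50% or more of the nuclei of all 5 clusters, Cdh23, Scube2, Gm40331 and Gm42953 in 25.6% or more of cluster 115 and in at most 5% of the others, and Calcr in 58.3% of cluster 184.

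Against cluster 184 the genes with the highest ratio were Dach2 (291 CPM against 0), Adamts6 (145 against 0), Cdh23, Gm44593, Cpne7, Gm40331, Gm42953, Abtb2, Nrip1 and Wdr18, all without a UMI in the 24 nuclei of cluster 184. The 10 lowest were Gm46102 (1.69 against 241 CPM), Calcr, the calcitonin receptor (3.38 against 285), Gm11802, Il1rapl2 (40.6 against 1417), the transcription factor Tox (22.0 against 733), Gm28578, Qrfprl, Pth2r, Gabra4 and Kcnh8. With 24 nuclei in cluster 184 a gene without a UMI may still be expressed at a low level.

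The 82 nuclei were not alike. The number of the 20 leading genes with a UMI ranged from 0 to 19 per nucleus with a median of 8, against 2 in other neurons. That the median was higher than in other neurons was built in, since the genes were picked for their level in these nuclei. In the 67 nuclei with at least 4000 UMIs, 35 held 9 or more leading genes (median 13) and 32 held fewer (median 4.5), at median depths of 8136 and 7859.5 UMIs. Both limits were chosen after these values had been seen, 7 nuclei lay at 8 or 9 leading genes, and the split is a range along a score and no test of subtypes.

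**Figure D3:**
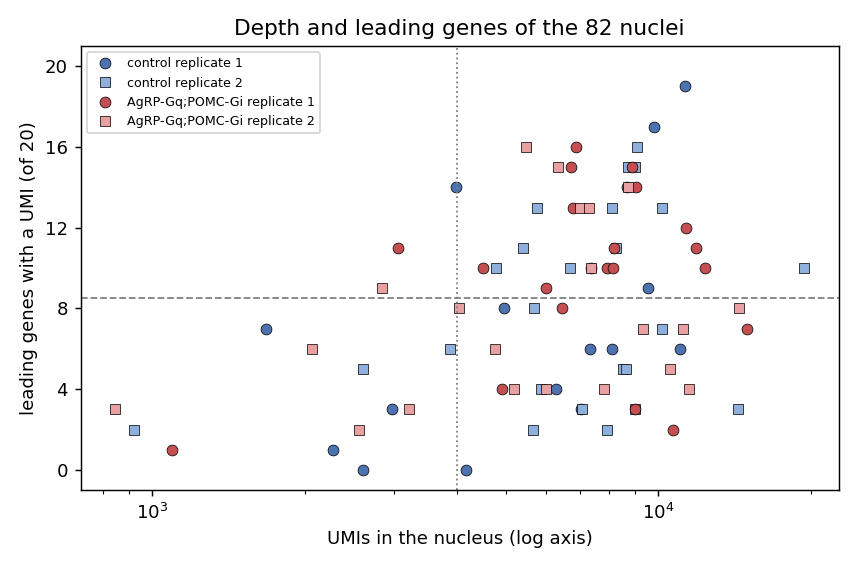
Leading genes with a UMI (of 20) against UMIs per nucleus on a log axis for the 82 nuclei, coloured by library, with lines at 4000 UMIs and between 8 and 9 genes. To the right of 4000 UMIs, nuclei of nearly the same depth could differ, as those with 8997 and 9060 UMIs, which held 3 and 16 leading genes.

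Both sets held the transmitter and lineage genes. Slc17a6 was at 208 CPM in nuclei with 9 or more leading genes and 229 CPM in nuclei with fewer, found in 91.4% and 68.8% of them, with Gad2 in 5.71% and 6.25%. Shox2, found in 48.6% and 31.2%, is itself one of the 20 genes that made the split, so that part of this difference was built in. Lhx3 was found in 12 and 3 nuclei and Lhx4 in 3 and 7. Hoxc4 was at 44.4 and 45.7 CPM.

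The genes with the highest and lowest ratios between the sets, ranked with 10 CPM added to both, were taken outside the 20, and their levels are given without that addition. Among them, St8sia4, a polysialyltransferase of neural cell adhesion molecules, was at 137 against 11.4 CPM, Tmem132c at 232 against 30.5, Glra3 at 536 against 91.4 and the synaptic adhesion gene Sdk1 at 595 against 152. In the other direction, Cntn5, a contactin of the immunoglobulin superfamily, was at 37.6 CPM in nuclei with 9 or more leading genes and 1067 CPM in nuclei with fewer. Cpne4 (0 against 118), Zeb2 (6.83 against 171), Ndst4 (41.0 against 461), Sorcs3 (20.5 against 244), Fign (27.3 against 278), Tafa1 (78.6 against 476) and the protocadherin Pcdh17 (47.8 against 305) followed the same order. In other neurons Cntn5, Cpne4, Zeb2, Sorcs3 and Tafa1 were at 1250, 103, 144, 280 and 519 CPM, near the nuclei with fewer leading genes. Ndst4, Fign and Pcdh17 were at 153, 59.8 and 169 CPM in other neurons, below those nuclei.

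Sema3a and Cdh9, which name the cluster, are 2 of the 20 genes that made the split, so that their difference was built in. They were at 704 and 803 CPM in the first set and at 57.1 and 141 CPM in the second. Other neurons held 76.6 and 89.1 CPM. The profile of the first set correlated best with clusters 30 (r = 0.226) and 143 (0.224) and that of the second with clusters 184 (0.332) and 30 (0.282), against 0.527 between the sets. Among nuclei with at least 4000 UMIs the first set made up 36.4% and 52.4% of nuclei in control and 73.7% and 37.5% in Gq/Gi. The replicates of each group thus differed in this make-up.

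**Figure D4:**
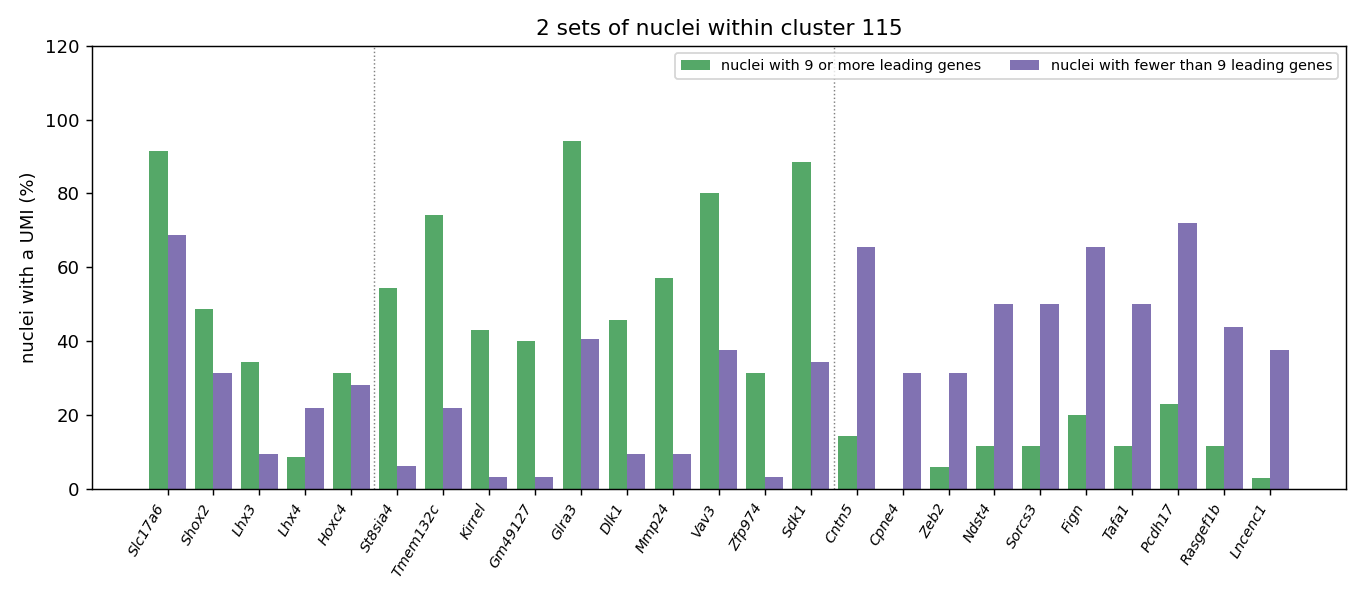
Share of nuclei with a UMI, in percent, in the 35 nuclei with 9 or more leading genes (green) and the 32 with fewer (purple), for 5 transmitter, lineage and position genes and the 10 genes with the highest and the lowest ratio outside the leading genes. Slc17a6, Hoxc4 and Shox2, the last one of the genes that made the split, stood in both sets, whereas Cntn5 was in 14.3% of the first and 65.6% of the second.

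Markers of other cells were present in part. The summed oligodendrocyte list was at 403, 302, 133 and 441 CPM against 157 to 319 CPM in other neurons. The summed astrocyte list was at 53.9 to 116 CPM, below the 122 to 155 CPM of other neurons. The summed microglial list was at 130 to 199 CPM against 174 to 184, and Tmem119, Csf1r and C1qb of its 7 markers had no UMI. The summed vascular and meningeal list was at 0, 124, 24.1 and 21.7 CPM against 13.7 to 24.0, so that control replicate 2 stood above the other libraries. Dcn was 2.13 times other neurons (5 nuclei), and Pecam1, Rgs5, Pdgfrb and Col1a1 of the 9 markers had no UMI. The list of oligodendrocyte precursors was higher, at 177, 70.0, 60.3 and 137 CPM against 24.0 to 28.5, with Vcan, a matrix proteoglycan, at 4.47 times other neurons (16 nuclei), Sox10, a factor of the oligodendrocyte lineage, at 3.47 times (5 nuclei) and Cspg4 at 0. The part of these markers in the levels of the cluster was not tested.

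The design asks whether activation of AgRP neurons with inhibition of POMC neurons changed the abundance or the RNA of these neurons within 1 h. The share of neurons in the cluster was 0.648% and 0.877% in control and 0.568% and 0.577% in Gq/Gi. The log2 difference was -0.41 ± 0.50 (SE), with an adjusted p of 0.804 in edgeR over 134 clusters, of which 0 were called (background 0%). Neurons numbered 2470 and 2736 in control and 3696 and 3637 in Gq/Gi, of 9725, 10051, 9723 and 9962 kept nuclei. Taken as a share of all kept nuclei the difference was 0.08 on the log2 scale, of the opposite sign.

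Within the cluster no gene passed the test between the groups. Of 10707 genes tested with edgeR's quasi-likelihood test, 0 were called at an adjusted p of 0.05 (background 0%), 425 had an unadjusted p under 0.05 (3.97% of genes, 231 higher and 194 lower in Gq/Gi), and DESeq2 called 0 and put 31 below that unadjusted limit. With 16 to 24 nuclei per library, low genes rested on few UMIs, and a p that misses the threshold does not show that the groups were alike. With a library left out the counts were 0 (control replicate 1), 1 (control replicate 2), 9 (Gq/Gi replicate 1) and 8 (Gq/Gi replicate 2). Without Gq/Gi replicate 1 the calls were Xist, Tsix, Uty, Eif2s3y, Ndst4, Ryr3, Srrm4, Chrm3 and Zfp536, of which the first 4 are sex-linked. Without Gq/Gi replicate 2 they were Ttr, Reln, Cadps2, Slc13a1, Tafa1, 1700016P03Rik, Dcakd and Grik1, and without control replicate 2 Ttr, which differed in opposite directions in these 2 cases.

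The test of whether the group difference in the cluster differed from that in other neurons called 0 of 10707 genes (background 0%), with 429 at an unadjusted p under 0.05. It called 6 without Gq/Gi replicate 1 (Ryr3, Gnasas1, Ndst4, Arhgap24, Chrm3 and Dach2) and 5 without Gq/Gi replicate 2 (Reln, Cadps2, Slc13a1, Tafa1 and Grik1). Of the 20 genes that either test called with a library left out, 10 differed over 2-fold in level between the sets of nuclei described above. Of all 10707 genes tested, 22.9% did so. Of the same 20 genes, 7 differed over 2-fold and were lower in nuclei with 9 or more leading genes, against 12% of the 10707. Dach2, also among the 10, helped to make the split, and these counts are a description, with no test. The sets also drew unevenly on the libraries: Gq/Gi replicate 1 gave 14 nuclei to the first and 5 to the second, Gq/Gi replicate 2 gave 6 and 10. Xist, which was nearly absent from Gq/Gi replicate 2, was also among the 10 (588 against 289 CPM). A difference between these libraries and one between the sets thus cannot be told apart in these counts. Among the 10 were Ndst4 (41.0 against 461 CPM), Reln (13.7 against 107), Tafa1 (78.6 against 476), 1700016P03Rik (17.1 against 95.2) and Ryr3 (58.1 against 206). Of the UMIs behind the higher value of 1700016P03Rik, 15 came from a single nucleus with 3 leading genes, described below. With all 4 libraries no list had a member called in either test.

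The 10 immediate early genes (IEGs) used by the study, whose transcription rises within minutes of neuronal firing, had a UMI in 10, 10, 15 and 11 nuclei by library. Homer1, a postsynaptic scaffold gene with an activity-induced short form, was at 49.1, 53.9, 102 and 72.2 CPM, so that both Gq/Gi libraries lay above both controls, with a log2 difference of 0.83 ± 0.48 (SE) and adjusted p = 0.989 in edgeR. 1700016P03Rik, the host transcript of activity-induced microRNAs, was at 39.3, 5.39, 139 and 21.7 CPM (2.28 ± 0.85, adjusted p = 0.989), and Junb at 9.83, 5.39, 48.2 and 7.22 CPM. In both the groups overlapped. The log2 difference of 1700016P03Rik was 0.23 without Gq/Gi replicate 1, 1.19 without control replicate 2, 3.07 without Gq/Gi replicate 2 and 3.83 without control replicate 1. Jun and Btg1 lay lower in both Gq/Gi libraries, at 19.7, 21.5, 12.1 and 0 CPM and at 49.1, 32.3, 30.1 and 14.4 CPM.

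Of the 6 IEGs found in at least 5% of nuclei, 0 were called, 1 had groups that did not overlap upward and 2 downward, against 14.8% and 18.1% of all genes tested. Nr4a1 was at 19.7, 0, 12.1 and 21.7 CPM. Fos was at 0, 10.8, 36.2 and 7.22 CPM in 4 nuclei, and Fosl2, Gem and Nr4a3 were found in 2 nuclei each and were not tested.

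The high values of Gq/Gi replicate 1 came in large part from a single nucleus. The summed level of the 10 IEGs was 197, 129, 482 and 144 CPM by library, and 159, 153, 153 and 194 CPM in other neurons. One nucleus of Gq/Gi replicate 1, with 8997 UMIs in all, held 40 of the 144 IEG UMIs of the whole cluster, spread over 7 IEGs (15 of 1700016P03Rik, 6 of Nr4a3 and 4 or 3 each of Fos, Homer1, Gem, Junb and Fosl2). Without it, a choice made after seeing the values, that library stood at 255 CPM, still the highest of the 4. Nuclei with 3 or more IEGs numbered 2, 2, 3 and 1.

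**Figure D5:**
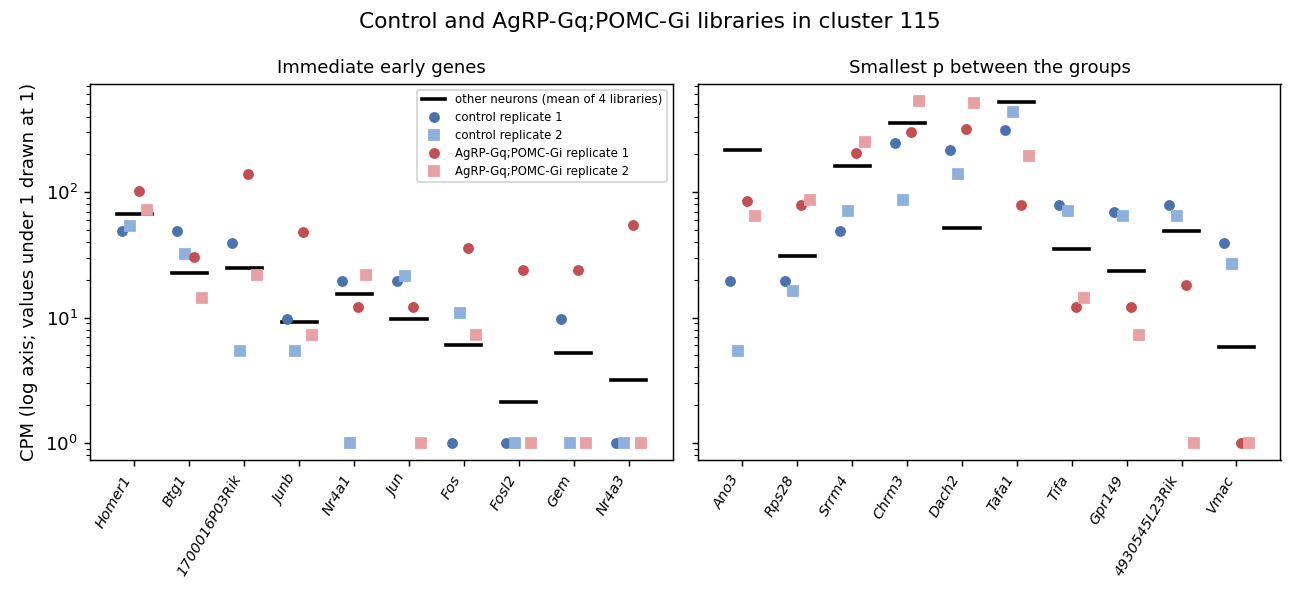
Level in cluster 115 by library, as CPM on a log axis with values under 1 drawn at 1, for the 10 IEGs (left) and for the 5 genes with the smallest p in each direction among those whose groups did not overlap (right), with a black bar for other neurons. Gq/Gi replicate 1 was the highest library for 7 of the 10 IEGs, and none of the genes shown passed the adjusted test.

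The genes with the smallest p in each direction, among those whose groups did not overlap (14.8% of genes upward and 18.1% downward), are given as values, none being called. Srrm4, a neuronal splicing regulator of microexons, was at 49.1, 70.0, 205 and 253 CPM, a log2 difference of 1.93 ± 0.39 with an unadjusted p of 9.77e-05 and an adjusted p of 0.989 in edgeR. Dach2, also a leading gene, was at 216, 140, 319 and 513 CPM (1.33 ± 0.35), the muscarinic receptor Chrm3 at 246, 86.2, 301 and 534 CPM (1.51 ± 0.41), the membrane protein Ano3 at 19.7, 5.39, 84.4 and 65.0 CPM and the ribosomal protein gene Rps28 at 19.7, 16.2, 78.3 and 86.7 CPM. The log2 difference of Chrm3 was 0.84 without control replicate 2 and 2.28 without control replicate 1.

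In the other direction, Tafa1, a secreted brain protein, was at 314, 431, 78.3 and 195 CPM (-1.43 ± 0.38, and -2.11 without Gq/Gi replicate 2). Tifa was at 78.6, 70.0, 12.1 and 14.4 CPM, Gpr149 at 68.8, 64.6, 12.1 and 7.22 CPM, the noncoding 4930545L23Rik at 78.6, 64.6, 18.1 and 0 CPM, and Vmac at 39.3, 26.9, 0 and 0 CPM. Tafa1 was at 78.6 CPM in nuclei with 9 or more leading genes and 476 CPM in nuclei with fewer, and 4930545L23Rik at 13.7 and 72.4 CPM. Srrm4 was at 140 and 160 CPM, Tifa at 44.4 and 34.3 CPM and Vmac at 13.7 and 19.0 CPM. Dach2 is one of the 20 genes that made the split, so that its higher level in the first of these sets was built in. The part of the nuclear make-up in the group values was not tested. The Y-linked gene Uty, at 29.5, 26.9, 54.2 and 209 CPM, also had groups that did not overlap. It was higher in Gq/Gi and came next by p after the 5 genes given for that direction.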

How the data were processed

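Nuclei were sorted by DRAQ5, and the authors aligned the reads with Cell Ranger to GRCm38 and deposited one matrix of UMI counts per library and a table of nuclei with quality flag, cluster and cell type. Per the study's methods, clusters came from Louvain clustering of an scVI embedding made without IEGs, and the authors ran a doublet detector, so none was run here. The deposited table also gives each barcode's percent of mitochondrial RNA, computed by the authors with Seurat, and the authors' IEG score and category, their own comparison, which were not used. Library totals ran from 48904976 to 53089402 UMIs.

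Counts were summed per library over the cluster (pseudobulk) and given as CPM, and levels were compared within a gene only. Groups were compared with edgeR 4.0.16 (quasi-likelihood test, TMM, Benjamini-Hochberg adjustment over all genes found in 5% or more of the cluster's nuclei, threshold 0.05), in R 4.3.3. The scripts were tested on simulated counts with 200 of 10707 genes changed and the same spread in the cluster for all genes. The group test recovered 0% of genes changed 2-fold, 37% of those changed 4-fold and 75% of those changed 8-fold. The test against other neurons recovered 0%, 18% and 66.5%. Ratios to other neurons added 1 CPM to both. Intervals are exact Clopper-Pearson and, like the limit of 3 counts for a count of 0, cover counting error only. The members, gene lists and rules were chosen with earlier results of these data known. The genes named were the 20 leading genes (1 is not reported here), the members of fixed lists, the 5 genes with the smallest p in each direction whose groups did not overlap, and the 10 genes that differed most from the most similar cluster and between the sets of nuclei. Genes outside these, such as those called with a library left out, were named after their values were seen. Alternatives were DESeq2 1.42.0, no TMM, other filters, a replicate block and leaving out each library.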

Additional observations from a re-analysis of the deposited data

How the results depend on the processing

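With each library left out in turn, the genes called between the groups numbered 0 to 9 and those called for the difference from other neurons 0 to 6, against 0 in each with all libraries. The log2 difference of the share of neurons was -0.61 to -0.18 with a library left out. It was 0.0802 as a share of all kept nuclei, of the opposite sign. These shares differ in denominator, and the neurons per library are given above. Why the number of neurons differed between the groups was not tested. Without TMM, without the filter, with filterByExpr and with DESeq2 no gene was called between the groups. The replicate differences of the groups correlated at -0.025 over genes. With few UMIs for many genes, this value cannot tell whether same-numbered libraries share a preparation. The replicate block called 0 genes and gave a share difference of -0.40. Of the 20 leading genes, 16 to 18 were shared with a library left out and 17 with the median cluster as comparator. Of the 3 most similar clusters, 2 were shared with Spearman correlation, with more variable genes and with each library left out. A library left out leaves 1 in its group, which is then assumed to vary like the other group. With 16 to 24 nuclei per library, depth limits every value of a low gene.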
